A study of Mus musculus with 13 samples.

Results

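A divergent promoter is a stretch of DNA that lies between the starts of a pair of genes read outward on opposite strands. Such head-to-head pairs often share a CpG-rich promoter without a TATA box, and many of them encode DNA repair proteins, mitochondrial proteins and other products that most cells use. A shared promoter does not by itself make the messages of its genes equally abundant, since transcription in each direction, splicing and RNA stability all act on the level. ATAC-seq finds such sites because the transposase Tn5 cuts and tags DNA that is not covered by nucleosomes.

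The regions described here are the open regions within 1000 bp of the transcription start site (TSS) of at least 1 gene on each strand, with the TSS taken as the 5′ end of the gene in the count table (mm10). They numbered 1071 of the 18310 regions of the unified list, and 1975 of 24470 genes had a TSS near one of them. Of the other regions, 6552 lay near TSSs of 1 strand only and 10687 lay near no TSS. Each region was assigned its nearest gene on the plus strand and its nearest gene on the minus strand, which gave 979 distinct pairs, written here with the minus-strand gene first. Of these pairs, 890 had 1 region and 89 had more, at most 3. The 27 regions whose farther TSS lay in the last 100 bp inside the limit had a median width of 172 bp and were in 6.44 of 8 lists on average. The 22 regions up to 100 bp beyond the limit had a median width of 137 bp and were in 6.59 lists.

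All libraries came from the E14 mouse embryonic stem cell line (129/Ola background) grown in serum with leukemia inhibitory factor, with no treatment, so the groups differ in protocol, cell number and experiment. The low-input protocol took ATAC and mRNA from the same cells, in experiment 1 with 10000 and 20000 cells and in experiment 2 with 5000, 10000 and 20000 cells, which gave 5 libraries of each kind. Omni-ATAC was run once each with 5000, 10000 and 50000 cells. The design text calls the experiments independent and places them on different days, but no source says that libraries came from separate cultures, so p-values measure the spread between these libraries, which may be technical.

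Total counts of the mRNA libraries ran from 13727122 to 20426252, and a count of 0 allows a level of up to 0.147 to 0.219 CPM (counts scaled to the library's total), which covers counting error only. The ATAC lists held 9097 to 95457 peaks, with read depth unknown. All 8 embryonic stem cell markers had a mean of at least 10 CPM, and their summed level was 2980 to 3223 CPM in the 5 libraries. The summed level of 5 fibroblast markers was 31.5 and 34.7 CPM in experiment 1 and 7.98 to 10.4 CPM in experiment 2. Most of that sum was Thy1, with a mean of 17.3 CPM, while Col1a1, Col1a2 and S100a4 had means of 0.855, 0.123 and 0.580 CPM and Col3a1 was at 0 in every library. Of 5 markers of other lineages, none reached a mean of 10 CPM. No marker of the 3 lists lies at a region described here.

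The unified list could be rebuilt from the 8 lists. Bases covered by at least 3 of the 8 lists, joined across gaps of up to 200 bp and kept from 50 bp in width, gave 18351 intervals, among them all 18310 unified regions with identical ends. The remaining 41 lay on chromosomes without a unified region. Every region is thus in at least 3 lists by construction, and its width and its recovery come from the same lists.

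Most of the regions sat at truly divergent starts, but not all. In 879 regions (82.1%) the minus-strand gene started before the plus-strand gene, so that transcription leads away on both sides. In the other 192 (17.9%) the starts overlapped, with the plus-strand TSS lying before the minus-strand TSS, and the rule alone does not tell these apart. The 809 distinct divergent pairs had a median distance of 176 bp between their TSSs, with quartiles of 100 and 331 bp, and 784 of them (96.9%) lay within 1000 bp of each other. The 170 overlapping pairs shared a median of 317.5 bp.

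**Figure D1:**
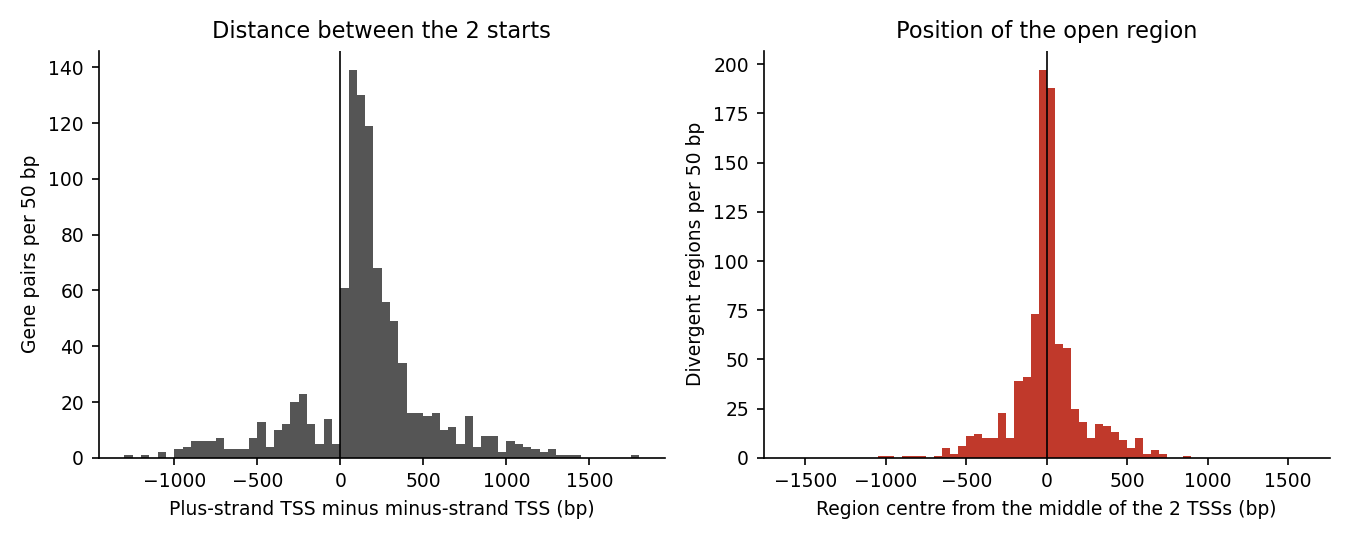
Left, the distance from the minus-strand TSS to the plus-strand TSS in bp (x axis) against the number of gene pairs per 50 bp (y axis); values below 0 are pairs with overlapping starts. Right, the distance in bp from the middle of the TSS pair to the centre of the open region, for the 879 divergent regions. Pairs gather below 331 bp and the centres of the regions gather around 0, which the rule favours.

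The position of the open region follows in part from the rule, which asks for starts on both strands nearby, so it is given as a description. Over divergent regions the centre was a median of -1 bp from the middle of the TSS pair, with quartiles of -63.5 and 72 bp, and 705 of them (80.2%) lay within 250 bp of the middle. Of all 1071 regions, 399 covered both TSSs, 425 covered 1 TSS, 89 lay between the TSSs without reaching either, and 158 lay outside.

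The DNA between the starts is shown for 8 pairs, chosen among the pairs described below whose RefSeq start sites equal those of the count table. The choice is for illustration, and other pairs that meet this, such as Wdr83/Wdr83os, Haus8/Myo9b and Atm/Npat, are not shown. In the pairs shown, the minus-strand start lies within the 250 bases before the plus-strand start. The sequences are from RefSeq (GRCm38.p6), on the plus strand of the chromosome from the base after the minus-strand start to the base before the plus-strand start. Capitals mark matches on either strand to the GC box GGGCGG, the CCAAT box CCAAT and the ETS-type motif CCGGAAG.
Hspd1/Hspe1, chr1:55087933-55088147: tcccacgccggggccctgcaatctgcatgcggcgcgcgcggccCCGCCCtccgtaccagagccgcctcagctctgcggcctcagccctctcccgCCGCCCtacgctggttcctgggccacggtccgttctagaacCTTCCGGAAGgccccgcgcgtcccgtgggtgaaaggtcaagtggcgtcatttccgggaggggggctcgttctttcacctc
Aimp2/Pms2, chr5:143909840-143910000: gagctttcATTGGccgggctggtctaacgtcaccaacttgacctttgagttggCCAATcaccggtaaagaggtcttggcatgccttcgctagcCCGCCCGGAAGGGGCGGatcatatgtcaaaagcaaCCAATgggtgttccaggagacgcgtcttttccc
Palb2/Dctn5, chr7:122132947-122133040: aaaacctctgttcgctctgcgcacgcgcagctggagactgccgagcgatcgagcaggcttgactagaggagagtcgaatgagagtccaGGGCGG
Brca1/Nbr1, chr11:101551956-101552106: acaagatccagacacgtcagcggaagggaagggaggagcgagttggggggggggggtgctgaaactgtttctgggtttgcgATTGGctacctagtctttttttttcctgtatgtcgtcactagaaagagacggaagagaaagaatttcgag
Tsc2/Nthl1, chr17:24632628-24632681: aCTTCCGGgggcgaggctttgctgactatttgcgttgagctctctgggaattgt
Ndufaf2/Ercc8, chr13:108158626-108158737: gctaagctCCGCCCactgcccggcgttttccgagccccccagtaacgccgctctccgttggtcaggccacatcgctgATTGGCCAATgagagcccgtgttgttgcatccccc
Psmb9/Tap1, chr17:34187331-34187555: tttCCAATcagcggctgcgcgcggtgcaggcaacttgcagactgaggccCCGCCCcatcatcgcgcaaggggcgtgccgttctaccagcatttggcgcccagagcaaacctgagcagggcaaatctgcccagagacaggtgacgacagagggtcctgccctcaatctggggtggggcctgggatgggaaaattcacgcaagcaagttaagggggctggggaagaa
Dynll1/Gm13830, chr5:115300991-115301119: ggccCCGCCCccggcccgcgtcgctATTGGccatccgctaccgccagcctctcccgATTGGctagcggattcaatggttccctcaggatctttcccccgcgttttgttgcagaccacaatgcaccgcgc

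The 8 stretches differ in how many of these words they hold. Aimp2/Pms2 has 6 matches in 161 bases, among them 3 CCAAT boxes and a GC box that overlaps the ETS-type word. Hspd1/Hspe1 has 4 matches in 215 bases, including ETS-type words on both strands that share bases. Brca1/Nbr1, Palb2/Dctn5 and Tsc2/Nthl1 have 1 match each. A match is only a run of letters in this window and says nothing of binding.

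The promoter windows of the genes were GC-rich. RefSeq windows from 250 bases before to 50 bases after the start could be matched, with a start within 100 bp of that in the count table, for 1588 of the 1975 genes (80.4%). Their median GC content was 63.0% and their median ratio of observed to expected CpG was 0.851, against 52.7% and 0.384 in all 32851 windows of the RefSeq table. Genes near regions of 1 strand had a matched window in 76.0%, under the 80% needed here, so a check against them is void. Those with a window had a median GC content of 61.7% and a CpG ratio of 0.780. All 17328 genes of the count table with a matched window (70.8%, also under that limit) had 56.3% and 0.578. These values are printed as descriptions, and nothing is drawn from them.

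Searched on both strands, the ETS-type word CCGGAAG occurred in 29.1% of the windows, against 8.86% of all RefSeq windows. Among 847 genes of divergent pairs with starts up to 250 bp apart, whose windows largely overlap their partner's, the share was 36.4%. The GC box GGGCGG was in 72.04% against 35.7%, CCAAT in 46.7% against 37.4% and the NRF1-type word GCATGCGC in 6.30% against 2.71%. The TATA box TATAAA was in 4.85% against 13.6%, the octamer TTTGCAT in 2.52% against 4.63%, and the E-box CACGTG in 10.1% against 7.15%. In the genes near regions of 1 strand that had a window, the shares were 71.8% for the GC box, 46.4% for CCAAT, 6.14% for GCATGCGC, 10.5% for CACGTG, 6.18% for TATAAA, 3.61% for TTTGCAT and 18.4% for CCGGAAG. In all genes of the count table with a window, the GC box was in 46.5%, CCAAT in 39.4%, GCATGCGC in 3.68%, CACGTG in 8.14%, TATAAA in 13.3%, TTTGCAT in 4.35% and CCGGAAG in 12.04%. These shares are descriptions without a test, and paired genes count the same DNA more than once.

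Regions at starts on both strands were found in more lists than regions at starts on 1 strand. A region counted as found where a peak of the list overlapped it by at least 1 bp. Of the 1071 regions, 533 (49.8%) were found in all 8 lists, against 36.3% of regions near TSSs of 1 strand and 18.6% of regions near no TSS. The counts for 7, 6, 5, 4 and 3 lists were 256, 129, 94, 50 and 9. All 5 low-input lists held 756 of the regions (70.6%), against 59.4% and 41.9%.

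Omni-ATAC found 56.8% of the regions (95% Wilson interval 53.8 to 59.7) with 5000 cells, 93.7% (92.1 to 95.04) with 10000 cells and all 1071 with 50000 cells. Low-input ATAC in experiment 1 found 82.0% (79.6 to 84.2) with 10000 cells and 92.0% (90.2 to 93.5) with 20000 cells. In experiment 2 it found 82.5% (80.2 to 84.7) with 5000 cells, 96.0% (94.6 to 97.0) with 10000 cells and 99.8% (99.3 to 99.9) with 20000 cells. The intervals cover counting error only. In each series the list from more cells held more of the regions: all 7 pairs of lists within a series were ordered this way (exact two-sided permutation test over 72 arrangements, p = 0.0278, the smallest this design allows; adjusted over 5 tests 0.0347). Read depth is unknown, so more cells and deeper sequencing cannot be told apart.

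**Figure D2:**
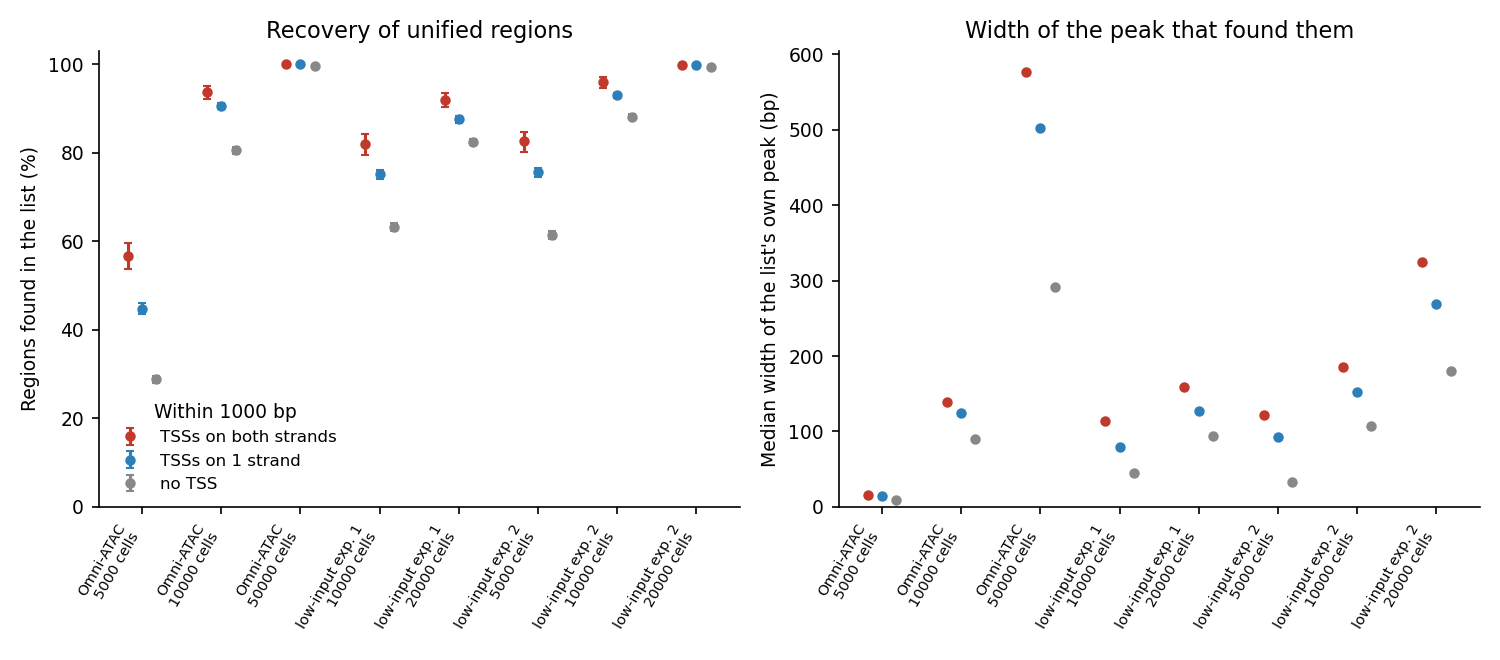
Left, the share of regions found in each of the 8 lists (%), with 95% Wilson intervals, for regions near TSSs on both strands (red), on 1 strand (blue) and near no TSS (grey). Right, the median width in bp of the peak that found them. Red lies above blue in both panels in all 8 lists, by 12.0 points in the Omni-ATAC list from 5000 cells and by 0.0153 points in that from 50000 cells.

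The difference from regions near TSSs of 1 strand was positive in 8 of 8 lists. Those were recovered at 44.7%, 90.5% and 99.98% in the Omni-ATAC lists, at 75.1% and 87.6% in experiment 1, and at 75.6%, 92.9% and 99.7% in experiment 2, in order of cell number. The mean difference was 4.58 ± 3.99 percentage points (SD over 8 lists; exact two-sided sign-flip permutation test, p = 0.0078125, the smallest 8 lists allow; adjusted over 5 tests 0.0195). The lists describe the same cell line and share the unified list, so they are not independent samples of cells. In the Omni-ATAC list from 5000 cells 39.6% of the finds rest on 9 bp peaks, against 45.4% near TSSs of 1 strand. Its difference was 0.815 points where a peak had to cover 50% of the region, while the mean over the 8 lists was 3.56 points by that rule and 6.43 points with peaks of at least 50 bp (exact p = 0.0078125 for both). Leaving out the 50000-cell Omni-ATAC list, which finds nearly every region, gave a difference of 5.23 points.

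The regions were also wider, which the rule favours in part, since it measures 1000 bp from a region's edges. Their median width was 234 bp (quartiles 144 and 367, widest 1025), against 194 bp near TSSs of 1 strand (122 and 310) and 139 bp near no TSS. The peaks of each list that found them had a median width of 16 to 576 bp, and were 34.3 ± 22.2 bp (SD, n = 8 lists) wider than those at regions near TSSs of 1 strand, wider in 8 of 8 lists (exact two-sided sign-flip permutation test, p = 0.0078125, adjusted 0.0195). Wider regions were found in more lists in both kinds, and within quartiles of region width the mean recovery difference was 2.74 points (exact p = 0.0078125). From the narrowest to the widest quartile, mean recovery was 74.4%, 83.5%, 91.1% and 96.3%, against 70.8%, 80.4%, 88.5% and 94.7% near TSSs of 1 strand.

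**Figure D3:**
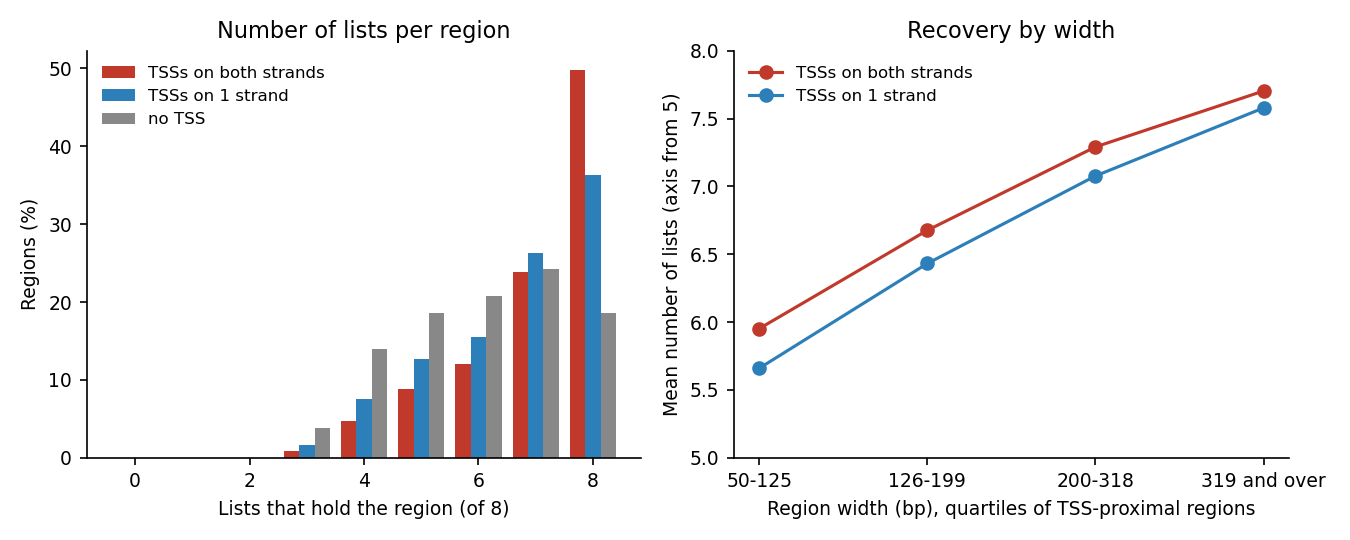
Left, the share of regions (%) by the number of lists that hold them, for regions near TSSs on both strands, on 1 strand and near no TSS; the bars start at 3 lists because the unified list does. Right, the mean number of lists by quartile of region width in bp, with the y axis starting at 5. Red lies above blue in every quartile.

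Width and recovery are given by the distance between the starts. Divergent starts 1 to 100 bp apart had 215 regions with a median width of 183 bp, of which 33.0% were found in all 8 lists. Over 100 and up to 200 bp apart, the median width was 241.5 bp and 53.1% were in all 8 lists, and over 200 and up to 300 bp apart they were 294 bp and 55.4%. Beyond that the median width was 287 bp up to 500 bp and 247.5 bp up to 1000 bp, with 60% in all 8 lists in both classes. In the 27 regions with starts over 1000 bp apart it was 302 bp and 40.7%, so neither value rose throughout. The 192 regions at overlapping starts had a median width of 204 bp and 48.4% in all 8 lists. These values describe the regions, and no test was made between distance classes.

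The 5 widest regions were all in 8 lists. They belonged to 4930539J05Rik/Ube2d3 (chr3:135437744-135438768, 1025 bp), Syngr4/Tmem143 (1015 bp), Bbip1/Shoc2 (978 bp), Map3k12/Tarbp2 (948 bp) and Ttc9c/Hnrnpul2 (906 bp). Ube2d3 encodes a ubiquitin-conjugating enzyme, Tarbp2 a partner of Dicer, and Shoc2 a scaffold of the RAS pathway. The genes of the widest region differed in detection: Ube2d3 had 277.7 ± 15.0 CPM (SD, n = 5) and its partner, an lncRNA, 0.364 ± 0.325 CPM.

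At the other end, 9 regions were found in 3 lists, the lowest number possible. The region of Eif3i/Tmem234 (chr4:129600614-129600701, 88 bp) was found by Omni-ATAC at 10000 and 50000 cells and by low-input experiment 2 at 20000 cells, and by no other list. Eif3i, a subunit of the translation initiation factor eIF3, was at 791, 764, 640.4, 711 and 772 CPM in the 10000- and 20000-cell libraries of experiment 1 and the 5000-, 10000- and 20000-cell libraries of experiment 2. The same order is used for all values that follow. Of the divergent regions in 3 lists, the other 4 widest were at Socs2/5730420D15Rik, 1700088E04Rik/Polr2f, Tmem186/Pmm2 and Gm15787/Golga3.

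Both genes were detected at most pairs. With a minimum of 1 CPM in the mean of the 5 libraries, both genes of 647 of 979 pairs passed (66.1%, 95% Wilson interval 63.1 to 69.0), 1 gene in 293 (29.9%) and neither in 39 (3.98%). In single libraries the share with both was 64.0% to 66.5%. At a minimum of 10 CPM it was 29.6%. Transcript lengths were not used here, so CPM are not compared between genes beyond these minimums, and in bulk libraries fewer expressing cells and less RNA per cell cannot be told apart.

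The share differed with the kind of gene. Of 705 pairs of protein-coding genes, both passed in 569 (80.7%). Of 241 pairs of a coding gene with a long noncoding RNA (lncRNA), both passed in 71 (29.5%), only the coding gene in 144, only the lncRNA in 3 and neither in 23. Divergent pairs had both genes detected in 68.1% and pairs with overlapping starts in 56.5%.

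**Figure D4:**
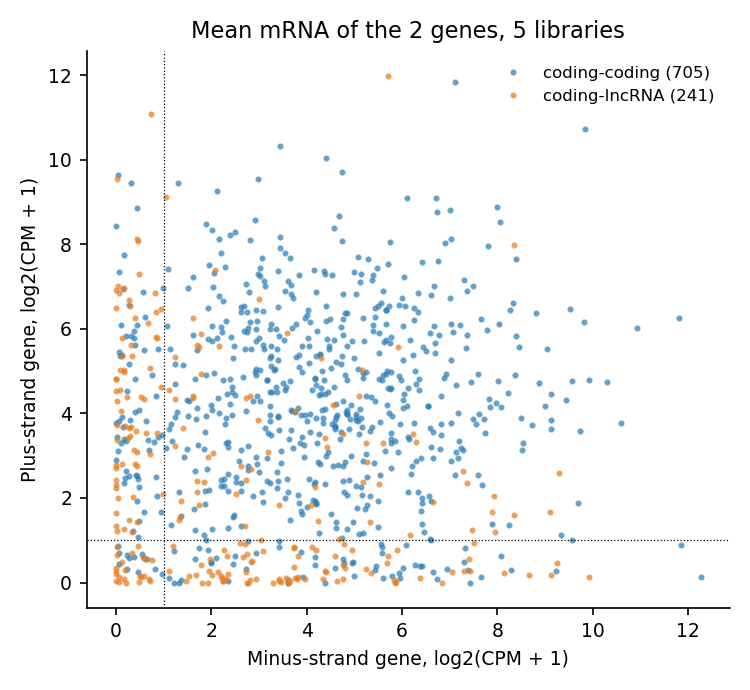
Mean mRNA of the minus-strand gene (x axis) and the plus-strand gene (y axis) of each pair as log2(CPM + 1) over 5 libraries, for coding-coding pairs (blue) and coding-lncRNA pairs (orange); dotted lines mark 1 CPM. Blue points fill the upper right, while many orange points lie along 1 axis, with 144 pairs in which only the coding gene passed.

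Genes at these regions were compared with genes near regions of 1 strand for the share at 1 CPM or more. The difference was -2.57 ± 0.567 points (SD, n = 5 libraries), below 0 in 5 of 5 libraries (exact two-sided sign-flip permutation test, p = 0.0625, which is the smallest 5 libraries allow). The gene kinds differ: 12.4% of the genes at these regions were lncRNAs, against 2.47%. Among coding genes alone the difference was 3.28 points in the other direction, while of lncRNAs alone 32.6% were at the minimum at these regions and 42.8% near regions of 1 strand (means over 5 libraries).

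Regions with both genes detected were recovered slightly more often than the others, but the difference depended on how it was taken. It was 1.89 ± 1.91 points (SD, n = 8 lists), positive in 7 of 8 lists (exact two-sided sign-flip permutation test, p = 0.0156, adjusted 0.0260). Within quartiles of region width it was 0.677 points (exact p = 0.109), at a minimum of 10 CPM 0.549 points (exact p = 0.547), and among coding pairs, a restriction chosen after seeing the data, 1.12 points (exact p = 0.156). Of 316 regions with 1 detected gene, the centre of 165 (52.2%, 95% Wilson interval 46.7 to 57.7) lay nearer to the TSS of the detected gene than to that of its partner. Among the divergent regions alone it was 112 of 245 (45.7%, 39.6 to 52.0), and both intervals include equal shares.

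Genes of DNA repair, replication, mitochondria and splicing were among those at these regions. Of 109 genes of DNA repair and replication, 40 (36.7%) lay at such a region, as did 58 of 219 mitochondrial genes (26.5%) and 18 of 69 splicing genes (26.1%), beside 8.07% of all genes. Among 98 chromatin genes it was 12, among 161 genes of the cytosolic ribosome and translation 14, among 414 zinc finger genes 18, and none of 12 histone genes or 21 pluripotency genes. Both genes passed 1 CPM in 31 of 38 repair and replication, 45 of 53 mitochondrial, 15 of 18 splicing, 11 of 14 ribosome and translation, 7 of 12 chromatin and 12 of 18 zinc finger pairs, beside 66.1% of all pairs and 80.7% of coding pairs. All genes of the table include those with no open region nearby. Among genes near any region, the share at starts on both strands was 24.3% of all, 48.2% of the repair and replication genes, 39.7% of the mitochondrial, 34.6% of the splicing, 22.6% of the chromatin, 17.1% of the ribosome and translation, 8.07% of the zinc finger and 0% of the histone and pluripotency genes. The lists were chosen by symbol, and the counts stand as descriptions.

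Of 15 textbook head-to-head pairs, 13 had a region. Hspd1/Hspe1, the genes of the mitochondrial chaperonin and its co-chaperonin, had a region of 359 bp (chr1:55087997-55088355) found in 5 lists. In the Omni-ATAC and experiment 2 lists from 5000 cells the peak was 9 bp wide. Counts of lists for other pairs below can also rest on peaks of 9 bp. Hspd1 was at 959.6, 1041, 791, 857 and 879.6 CPM and Hspe1 at 1933, 1795, 1723, 1621 and 1399 CPM. The values of both genes were higher in experiment 1, with no overlap, but neither passed the test: the log2 differences were -0.20 ± 0.11 and -0.30 ± 0.11 (SE; edgeR adjusted p = 0.239 and 0.0714).

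Several pairs joined a repair gene to a gene of another role. Aimp2/Pms2 pairs a scaffold of the tRNA synthetase complex with a mismatch repair protein, and its region of 724 bp (chr5:143909331-143910054) was in all 8 lists. Aimp2 was at 128, 145, 131, 148 and 174 CPM and Pms2 at 8.38, 8.83, 7.64, 8.25 and 12.4 CPM. Palb2/Dctn5 pairs the partner of BRCA2 with a dynactin subunit, and its 216 bp region was in 5 lists. Palb2 was at 6.12, 8.70, 14.1, 10.8 and 9.01 CPM. Palb2 was higher in every library of experiment 2 and the other 3 genes overlapped between experiments, and none of the 4 was called.

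Brca1/Nbr1 had 2 regions, 1 of 182 bp that covers both starts, in 7 lists, and 1 of 280 bp outside them, in 8 lists. For the 182 bp region the peak was 9 bp wide in both experiment 1 lists and the 10000-cell list of experiment 2. In the Omni-ATAC list from 50000 cells the peak was 1059 bp wide at both regions. Brca1, a homologous recombination gene, was at 15.3, 12.4, 15.4, 19.1 and 13.2 CPM, and Nbr1, an autophagy receptor, at 12.3, 13.6, 7.10, 17.4 and 15.6 CPM, so the experiments overlap. Tsc2/Nthl1, with starts 55 bp apart, had a region of 193 bp in 8 lists. Surf1/Surf2 and Polh/Xpo5 had no unified region, although 4 and 6 of the 8 lists held a peak within 1000 bp of a start.

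A further 3 such pairs were in all 8 lists with at least 1 region. Atm/Npat, a DNA damage kinase and a histone gene activator, had a region of 395 bp over both starts, with Atm at 19.5, 20.8, 19.5, 17.1 and 19.9 CPM and Npat at 14.9, 10.8, 13.5, 14.5 and 15.9 CPM. Mcm4/Prkdc, a subunit of the replicative helicase and the catalytic subunit of DNA-PK, had starts 466 bp apart. The unified list held regions of 262 and 122 bp there, each over 1 start. The peak had the same width at both regions in the Omni-ATAC list from 50000 cells (933 bp) and the experiment 2 list from 20000 cells (619 bp). Wrap53/Trp53 had a region of 129 bp at the start of Wrap53, 1035 bp from that of Trp53, the p53 gene. In each of these 6 genes the values of the experiments overlapped or the difference was not called.

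Among the closest starts of the lists, Orc3/Rars2 lay 16 bp apart and shared a region of 341 bp (chr4:34614863-34615203) in 7 lists. Orc3, of the origin recognition complex, was at 44.4, 51.1, 35.4, 52.7 and 56.5 CPM and Rars2, a mitochondrial tRNA synthetase, at 51.3, 45.1, 56.2, 49.9 and 51.7 CPM. The experiments overlap for both. Rpa1/Smyd4, 50 bp apart, shared a region of 295 bp in 7 lists, and Rpa1, of the single-strand DNA binding complex, was at 261, 299.8, 227, 275 and 279 CPM. Gen1/Smc6 shared 591 bp in 8 lists; Smc6, of a chromosome maintenance complex, was at 19.6 and 24.4 CPM in experiment 1 and 23.3, 32.7 and 35.6 CPM in experiment 2 and rose by 0.63 ± 0.18 on the log2 scale (edgeR adjusted p = 0.0186), while the Holliday junction nuclease Gen1 had a difference of 0.31 ± 0.37 (adjusted p = 0.673). Some close pairs had regions in few lists, such as Rpl9/Lias, a ribosomal protein gene and the lipoic acid synthase gene, with 209 bp in 4 lists, and Sdhaf2/Cpsf7 with 85 bp in 4 lists.

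Experiment 2 was compared with experiment 1 to see which genes at these regions differed between the experiments, which the series' design text places on different days. With edgeR (adjusted p under 0.05, experiment 2 against experiment 1), 150 of 1664 tested genes were called (9.01%), against 12.5% of all 12523 genes. The shares lay closer without a filter on low counts (8.39% against 8.54%) and with DESeq2 (5.42% against 5.74%), and their difference was not tested. With cell number as a block, 181 of 1664 genes at these regions were called (10.9%), beside 14.1% of all 12523 genes. Of the 150, 80 were higher in experiment 2, beside 5.75% of all genes, and 70 were lower, beside 6.76%. The count fell to 84, 75 and 70 without the 10000-cell library of experiment 1, the 10000-cell library of experiment 2 and the 20000-cell library of experiment 2, and rose to 185 without the 20000-cell library of experiment 1. In the same order the calls were 4.90%, 4.38%, 4.06% and 10.7% of the tested genes at these regions, beside 7.57%, 6.09%, 6.43% and 13.4% of all genes. The summed fibroblast markers given above were higher in experiment 1, mostly Thy1, and their part in these calls was not tested.

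Chromosome 8 held 35 of the calls, all higher in experiment 2, out of 117 tested genes there (29.9%), beside 31.6% of all chromosome 8 genes. Without that chromosome, 115 of 1547 genes were called (7.43%), beside 11.4% of all genes. This restriction was chosen after seeing the data, and its cause was not tested. Between 20000 and 10000 cells no gene at these regions was called, nor any gene of all 12523 (0%), with 15 of 1664 genes at these regions and 101 of all 12523 at an unadjusted p under 0.05 by edgeR and 0 called by DESeq2. With the experiment as a block, 4 of all 12523 genes were called, and 1 of them, Lcmt2, lies at these regions, at -0.66 ± 0.14 on the log2 scale (edgeR adjusted p = 0.0451).

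Both genes of a pair were called in 9 pairs. Of 702 pairs with both genes tested, 125 had at least 1 gene called and 9 had both, all 9 in the same direction. Of 7415 other neighbouring pairs, 1746 had at least 1 gene called and 189 had both, 154 of them in the same direction. Of the 9 pairs at these regions, 6 were higher and 3 lower in experiment 2. Beyond those below, the 9 were Acot13/Tdp2, Abce1/Anapc10, Polr1h/Polr1has and Fam216a/Gpn3. The log2 changes had the same sign in 56.1% of the 702 pairs, beside 56.5% of those other pairs, and correlated with r = 0.183 and 0.169. Off chromosome 8 the values were 53.9% and r = 0.114 over 648 pairs, beside 55.3% and r = 0.147 over 6987 other pairs.

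**Figure D5:**
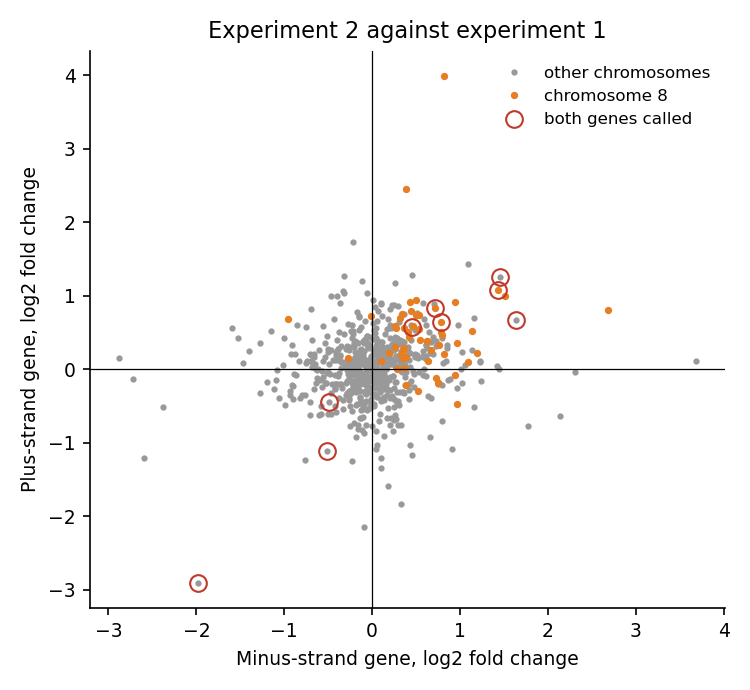
Log2 fold change of the minus-strand gene (x axis) and the plus-strand gene (y axis), experiment 2 against experiment 1, for 702 pairs with both genes tested. Orange points are on chromosome 8 and red circles mark the 9 pairs with both genes called, which lie in the upper right and lower left.

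Psmb9 and Tap1, which encode an immunoproteasome subunit and a peptide transporter of antigen presentation, fell. Psmb9 was at 11.5 and 11.04 CPM in experiment 1 and at 0.895, 1.42 and 4.16 CPM in experiment 2, and Tap1 at 1.38 and 2.14 against 0.955, 0.322 and 0.147 CPM. The values did not overlap, and the changes were -1.98 ± 0.37 and -2.90 ± 0.96 on the log2 scale (edgeR adjusted p = 0.000577 and 0.0471). Tap1 rests on few reads, with 3 in its lowest library. Here and below the 5000-cell value is printed but was not in the fit. Their region (chr17:34187307-34187737, 431 bp) was in all 8 lists.

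Cryzl1/Itsn1 rose, with a quinone reductase-like gene and an endocytic scaffold gene. Cryzl1 was at 12.9 and 12.2 CPM in experiment 1 and at 41.3, 39.0 and 39.5 CPM in experiment 2, a change of 1.64 ± 0.18 on the log2 scale (edgeR adjusted p = 8.33e-07). Itsn1 was at 11.0 and 10.6 against 11.4, 17.0 and 17.5 CPM, a change of 0.67 ± 0.22 (edgeR adjusted p = 0.0424). The experiments did not overlap for either gene. On chromosome 8, Wdr83/Wdr83os rose by 1.43 and 1.08 and Haus8/Myo9b by 0.72 and 0.83 on the log2 scale. Vax2os/Vax2, whose starts overlap by 937 bp, rose by 1.45 and 1.26, and since the counting is not stated to use strand, reads of that gene and its antisense partner cannot be told apart.

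Other pairs had 1 called gene. Srsf5, a splicing factor, was at 83.7 and 85.1 CPM in experiment 1 and at 124, 142 and 136 CPM in experiment 2, a change of 0.72 ± 0.13 (edgeR adjusted p = 0.000343), while Gm20337 had a difference of 0.12 ± 1.00 (adjusted p = 0.962). Ercc8, of transcription-coupled repair, fell by 0.67 (edgeR adjusted p = 0.0368), with 25.2 and 19.1 against 14.0, 12.4 and 15.4 CPM, while Ndufaf2, an assembly factor of respiratory complex I, had a difference of 0.21 ± 0.16 (adjusted p = 0.455). A difference between the genes of a pair was not tested.

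A well detected gene could sit beside an undetected one. Dynll1, a dynein light chain, was at 1069, 1050, 934, 903 and 843 CPM, and Gm13830 at 0, 0.0669, 0, 0.129 and 0.245 CPM, all but 1 below the floor of their library. Their region of 307 bp (chr5:115300930-115301236) covers both starts and was in all 8 lists, with own peaks of 243 to 428 bp. Mdh2, mitochondrial malate dehydrogenase, was at 990, 928, 683, 665 and 727 CPM beside Styxl1 at 0 in 4 of 5 libraries, with a region of 325 bp in all 8 lists. Mdh2 fell by 0.46 in experiment 2 (edgeR adjusted p = 0.00563).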

How the data were processed

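Gene counts for the 5 mRNA libraries were deposited by the authors as whole-number counts, and the ATAC data as intervals without height or score, 1 list per library and a unified list. The submitters' processing notes name cutadapt, Bowtie2 2.1.0, SAMtools 1.3.1, Picard, bedtools 2.24.0, MACS2 2.1.1, STAR 2.5, featureCounts, Subread 1.5.0-p1 and mm10, with no role; thresholds, strand use and multi-mapping are not given in the sources used here. Counts of overlapping genes and near-identical copies are therefore uncertain. Groups came from the titles. CPM are counts over the library total. Starts in the table equal those of RefSeq (GRCm38.p6) for 67.0% of genes, against 0.0491% after adding 1, and were read as 1-based.

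Recovery used an overlap of at least 1 bp. Differences over lists or libraries were tested by exact sign flips, with 5 tests adjusted together (Benjamini-Hochberg). Expression was tested on the 10000- and 20000-cell libraries with edgeR 4.0.16 (TMM, filterByExpr, quasi-likelihood, R 4.3.3), adjusted over all genes; the 5000-cell library has no replicate and was left out. DESeq2 1.42.0 was an alternative. The series' design text places the experiments on different days, so the experiment number marks a shared day and pairs the libraries: the experiment differences at 10000 and 20000 cells correlated over 11573 genes with r = 0.519. The main fits had no block, and blocks on cell number or experiment were alternatives. The steps were tested on simulated data. Bedtools 2.31.1, Python 3.11.15, pandas 2.3.3 and scipy 1.17.1 were used.

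The regions, the gene lists and the tests were chosen with earlier results of these data known. Named pairs are the textbook pairs, the 5 widest regions, the 5 in the fewest lists, up to 5 changed together, up to 5 with 1 gene under 1 CPM, and up to 3 per list by distance between the starts, of which the text describes some and some are not reported here.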

Additional observations from a re-analysis of the deposited data

How the results depend on the processing

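Precision is limited by 8 lists of unknown depth and by 1 or 2 libraries per group. The recovery difference was 4.27 points in the low-input lists (exact permutation p = 0.0625) and 5.11 in the Omni-ATAC lists (exact permutation p = 0.25), both the smallest p those designs allow, and 3.52 to 5.23 points leaving out each list. The difference in own-peak width was 28.6 to 38.9 bp. The share of genes at the minimum differed by 0.576 points at 10 CPM and 3.28 among coding genes, both opposite in sign to the value given, and by -2.73 to -2.34 leaving out each library. The share of pairs with both genes detected was 29.6% at 10 CPM, 70.9% at 10 counts, 68.1% in divergent pairs and 65.9% to 66.5% leaving out each library. The recovery difference by expression was 2.01 points with matched libraries (exact permutation p = 0.0625), 0.549 at 10 CPM, 0.677 within width quartiles, 1.12 among coding pairs and 1.36 to 2.16 leaving out each list.

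Genes at these regions called between experiments numbered 35 of 1664 with an absolute log2 change of at least 1, beside 612 of all 12523 genes, and 70 to 185 leaving out each library, where a lone library is assumed to vary like the others. Between cell numbers leaving out each library gave 0 to 0. With the replicate block for experiment, the pairing gave 1 call at these regions between cell numbers, beside 4 calls over all 12523 genes. With cell number as a block, 12 pairs had both genes called in the same direction between experiments, beside 9 without it. The cause of these shifts was not tested. Of the values under alternatives, 73 kept their direction and their side of the threshold or their size, 10 were weaker, 3 moved, 2 turned in sign and 1 was stronger.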
